A study of Mus musculus with 6 samples.

Results

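Potassium channel genes were examined in neural stem cell cultures of the embryonic mouse brain. A gene was taken as a member where its symbol begins with Kcn and a further letter, and where the platform annotation gave that symbol alone to a probe set. This gave 92 of 19938 measured genes, represented by 95 probe sets. Where a gene had several such probe sets, the one with the highest mean was used. All cultures came from wild type C57BL/6 embryos labelled female, at embryonic day 17.5, and were kept without serum in low-attachment dishes with the supplements N2 and B27 and with FGF and EGF at 20 ng/ml each. Cells had been taken from the subventricular zone along either the lateral or the third ventricle, and 3 arrays were run for each. The design speaks of independent females, but array numbers are not linked to animals, and the spread behind a p-value is that between cultures.

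Potassium channels let potassium ions leave or enter cells down their electrochemical gradient and so set the resting potential of most cells. In neurons, voltage-gated members shape the action potential, while in glial cells inward rectifiers take up potassium released by neurons. Progenitor cells carry several types, among them the tandem-pore channels that pass a background current at rest. By symbol, the 92 genes comprised 35 pore-forming voltage-gated alpha subunits, 12 auxiliary subunits of those channels, 12 subunits of calcium- and sodium-activated channels, 15 inward rectifiers and 14 tandem-pore channels. The other 4 were Kcnrg, a regulator of voltage-gated channels, and the opposite-strand transcripts Kcnd3os, Kcnmb4os1 and Kcnmb4os2, none of which is itself a channel.

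Promoter sequence is shown for 3 members of different classes whose values are described below. They were the members with the lowest p-values among those above background in all 6 arrays for which the table of RefSeq promoters held the bases before the gene's outermost annotated start. Kcnk1, Kcnc4, Kcnk2 and Kcnmb4os1 also had p-values below that of Kcnj16, with no such window. The genes shown are Kcnk10, a tandem-pore channel, Kcnh8, a voltage-gated channel of the Elk type, and Kcnj16, an inward rectifier. Each sequence runs 5′ to 3′ on the gene's strand and ends at the base before that start in RefSeq on GRCm38.p6, with CpG dinucleotides in capitals. The windows are chr12:98578214-98578463, minus strand for Kcnk10, chr17:52602459-52602708, plus strand for Kcnh8 and chr11:110967783-110968032, plus strand for Kcnj16.
Kcnk10: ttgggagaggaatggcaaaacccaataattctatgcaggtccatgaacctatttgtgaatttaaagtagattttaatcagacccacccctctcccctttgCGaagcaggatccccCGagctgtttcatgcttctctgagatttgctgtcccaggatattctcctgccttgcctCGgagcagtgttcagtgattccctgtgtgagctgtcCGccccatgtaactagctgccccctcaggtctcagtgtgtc
Kcnh8: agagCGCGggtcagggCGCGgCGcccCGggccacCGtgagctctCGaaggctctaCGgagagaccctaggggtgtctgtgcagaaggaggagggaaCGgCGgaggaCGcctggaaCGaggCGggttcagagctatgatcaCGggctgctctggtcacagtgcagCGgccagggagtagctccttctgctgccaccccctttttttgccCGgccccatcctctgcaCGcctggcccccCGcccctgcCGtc
Kcnj16: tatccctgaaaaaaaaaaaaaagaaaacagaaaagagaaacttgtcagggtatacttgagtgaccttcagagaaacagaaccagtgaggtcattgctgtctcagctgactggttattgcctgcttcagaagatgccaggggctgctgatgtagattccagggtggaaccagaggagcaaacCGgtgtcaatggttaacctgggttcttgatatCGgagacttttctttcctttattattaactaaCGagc

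The 250 bases before the start held 20 CpGs in Kcnh8, 4 in Kcnk10 and 3 in Kcnj16. The median was 6 over 32536 distinct RefSeq promoter windows of that length, and 7 over the 95 windows of 70 members found in the table. The motif TATAAA, read on both strands at any place in the window, was in none of the 3 windows printed. It was in 3.16% of the member windows and in 12.3% of all windows. The motif CCAAT was in the Kcnk10 window alone of the 3, in 29.5% of the member windows and in 33.8% of all windows. The motif GGGCGG occurred once in Kcnk10 and once in Kcnh8, and was in 44.2% of the member windows and 33.0% of all windows. Each motif was counted on its own, whether or not it overlapped another. A match to these letters is a description of the sequence, not of a bound site.

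As a gauge of background, the 95th percentile of 1027 olfactory receptor genes was taken in each array. It lay between 5.04 and 5.16 on the log2 scale. Of the 92 potassium channel genes, 32 (34.8%) lay above it in all 6 arrays, 22 in 1 to 5 arrays and 38 in none. Of all genes 55.3% lay above it in all 6 arrays. The share of members above the gauge lay between 45.7% and 51.1% in the single arrays, against 59.8% to 61.7% of all genes. The count depends on the gauge. It was 47 with the 90th percentile, 12 with the 99th and 54 with the 95th percentile of vomeronasal receptor genes, and 62.7%, 38.1% and 66.6% of all genes passed those gauges. The signal of one probe set cannot be set against that of another as an amount of RNA, and fewer cells with a transcript cannot be told from less of it per cell.

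Among the voltage-gated alpha subunits, 12 of 35 lay above the gauge in all 6 arrays. Kcnd2 and Kcnd3, pore subunits of fast inactivating A-type channels, lay at 7.37 to 8.13 and at 6.50 to 7.12. The delayed rectifiers Kcna2 and Kcna3 lay at 5.91 to 6.39 and 5.85 to 6.19. Further members of this class were Kcng1, Kcng2 and Kcns3, which do not form channels alone but modify others, the ERG channel Kcnh2, the Elk channels Kcnh3, Kcnh4 and Kcnh8, and Kcnc4. In 15 of the 35 no array passed the gauge, among them Kcna1, Kcna4, Kcna5, Kcnb2 and Kcnc2, which are known from mature neurons or muscle.

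Of the 12 auxiliary subunits, 3 lay above the gauge in all arrays. Kcnip3, a calcium-binding partner of the A-type channels, lay at 6.42 to 7.48, Kcnip1 of the same family at 5.25 to 5.55 and Kcne1l, a small membrane subunit, at 5.57 to 6.62. Kcne1, Kcne2, Kcne3, Kcne4, Kcnab3 and Kcnip2 passed it in no array.

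Of the 12 calcium- and sodium-activated subunits, Kcnmb4 and Kcnmb3, beta subunits of the large-conductance channel, and Kcnn3, a small-conductance channel, lay above the gauge in all arrays, at 6.30 to 7.15, 6.23 to 6.44 and 6.08 to 6.69. The pore subunit of the large-conductance channel itself, Kcnma1, passed in 5 of 6 arrays. Kcnmb3 overlaps Pik3ca in the RefSeq annotation, and how the array separates strands is not given in the sources used here.

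Of the 15 inward rectifiers, 4 passed in all arrays. Kcnj10, the main potassium uptake channel of glia, lay at 7.03 to 7.57, and Kcnj16, which forms mixed channels with it, at 6.57 to 8.31. Kcnj11, the pore of the ATP-sensitive channel, lay at 5.44 to 5.65. Its partners, the sulfonylurea receptors Abcc8 and Abcc9, passed in 2 and 1 of 6 arrays. Kcnj8, the pore of the vascular ATP-sensitive channel and a marker of pericytes, passed in none, at 4.15 to 4.58. The pericyte markers Pdgfrb and Rgs5 also passed in none, and of the 7 pericyte markers 1, Cspg4, which oligodendrocyte progenitors share, passed in all arrays.

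Kcnj13, best known from choroid plexus and retinal pigment epithelium, lay at 7.75 to 8.22. Ttr, the defining transcript of choroid plexus, lay at 3.36 to 3.71 and passed the gauge in 0 of 6 arrays. Of 7 choroid plexus markers chosen after the Kcnj13 values were seen, 2 (Folr1 and Otx2) passed in all arrays, and the mean of the 7 lay at 4.69 to 4.80 in the lateral and 4.70 to 4.72 in the third ventricle arrays. Kcnj13 lies within the span of Gigyf2 in the RefSeq annotation, and the probe set of Gigyf2 lay at 8.46 to 8.87. The part of Gigyf2 RNA in the Kcnj13 values was not tested.

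Of the 14 tandem-pore channels, 7 lay above the gauge in all arrays. These were Kcnk1 of the TWIK type, the mechanosensitive channels Kcnk2, Kcnk4 and Kcnk10, the acid-sensitive Kcnk3, and Kcnk7 and Kcnk15, for which currents have seldom been recorded. Kcnk4 lay at 5.22 to 5.62, Kcnk15 at 5.61 to 5.79, Kcnk7 at 5.26 to 5.61 and Kcnk3 at 5.27 to 5.52, all close above the gauge. Kcnk1, Kcnk2 and Kcnk10 reached 6.81, 7.08 and 6.25 in their highest array.

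**Figure D1:**
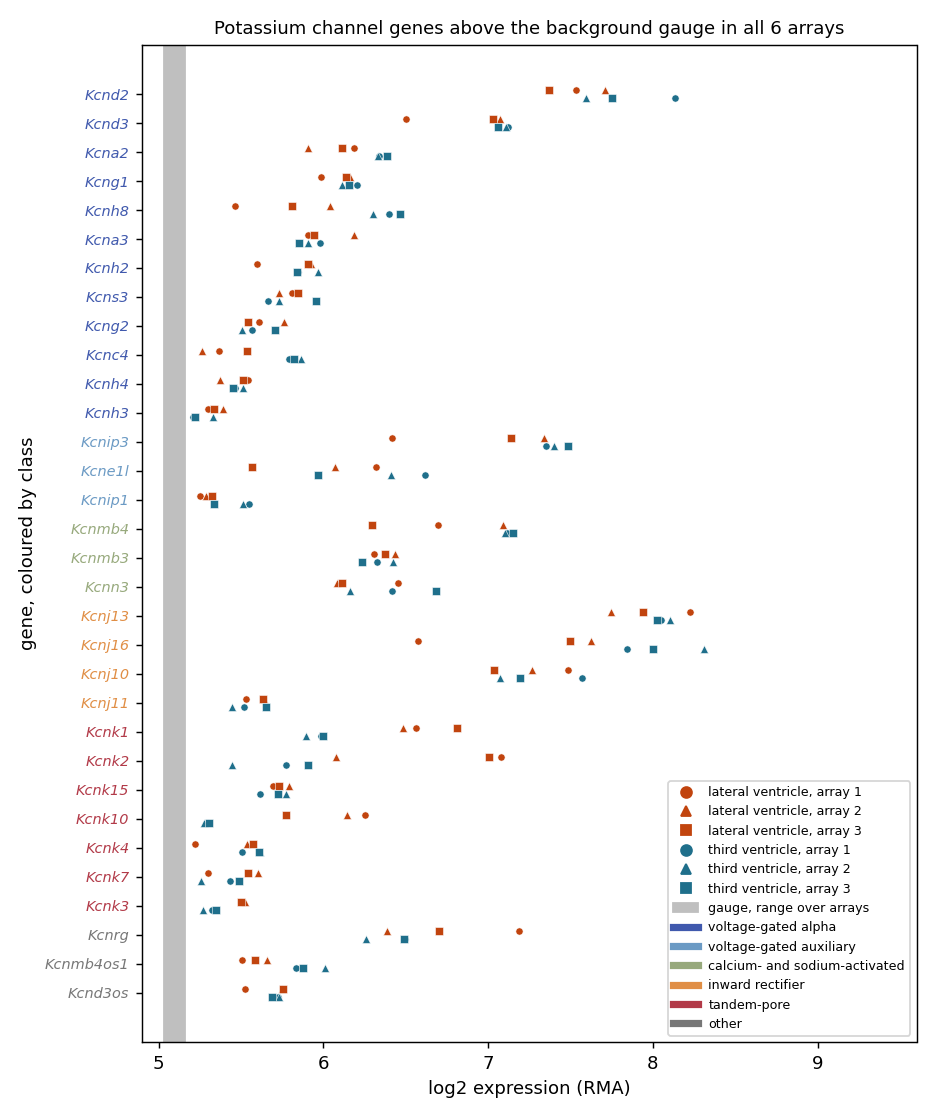
Log2 expression in each array (horizontal axis) of the 32 potassium channel genes above the background gauge in all 6 arrays, by class (label colour); circles, triangles and squares are arrays 1, 2 and 3 of the lateral (orange) and the third ventricle (blue), and the grey band is the range of the gauge, 5.04 to 5.16. Kcnj13, Kcnj16 and Kcnd2 have arrays above 8, while Kcnh3, Kcnk7 and Kcnk3 lie just above the band.

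The labelled cell type was checked against its markers. Of 10 neural stem cell markers 9 passed the gauge in all arrays, with Fabp7 at 12.92 to 13.17 and Vim at 11.24 to 11.58. No endothelial marker of 5 passed in any array. Of 6 microglia markers, Cx3cr1 passed in 5 arrays and the rest in none. Of 5 ependymal markers, 3 passed in all arrays. These were Ccdc153 at 5.81 to 6.04, Foxj1 at 5.28 to 5.43 and Tmem212 at 5.11 to 5.24. Over all genes lateral array 2 was more like the third ventricle arrays than like its own group. Its correlation was 0.980 with lateral array 1 and 0.982 with lateral array 3, which correlated with each other at 0.9899, while with each array of the third ventricle it was 0.991 or above. It also stood apart in cell cycle genes. The mean of 14 of them was 7.17 and 7.65 in lateral arrays 1 and 3, 9.01 in lateral array 2 and 8.97 to 9.01 in the third ventricle arrays. The main differences between the regions are therefore given with and without lateral array 2.

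Between the regions, no potassium channel gene of the 92 had an adjusted p under 0.05 (limma), where 0.231% of all genes did. The lowest adjusted p of a member was 0.0790. At an unadjusted p below 0.05 there were 19 members (20.7%), against 12.6% of all genes. Of these 12 (13.04%) were higher in the third ventricle cultures, against 6.21% of all genes, and 7 (7.61%) lower, against 6.43%. The unadjusted count was 12 of 92 members and 1701 of 19938 genes without array 1 of the third ventricle. Without lateral array 2 it was 20 members and 4295 genes, a similar share of each. The groups did not overlap in 24 members (26.1%) and in 17.0% of all genes. The median difference, the third minus the lateral ventricle, was 0.02 over the members and -0.02 over all genes on the log2 scale, and the median size of a difference was 0.11 for both.

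Over all genes 45.4% of differences were positive. By class, in the auxiliary subunits 10 of 12 differences were positive and the median was 0.11. In the inward rectifiers 11 of 15 were positive with a median of 0.03, in the alpha subunits 17 of 35 with a median of -0.01, and in the calcium- and sodium-activated subunits 6 of 12 with a median of 0.01. In the tandem-pore channels 5 of 14 were positive and the median was -0.08. At an unadjusted p below 0.05 (limma), 4 of these 14 were lower in the third ventricle cultures and 0 higher. Of all genes, 6.43% were lower and 6.21% higher at that threshold. The alpha subunits had 6 of 35 higher and 1 lower, and the auxiliary subunits 2 of 12 higher and 0 lower. The calcium- and sodium-activated subunits had 2 of 12 higher and 1 lower, and the inward rectifiers 1 of 15 each way.

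**Figure D2:**
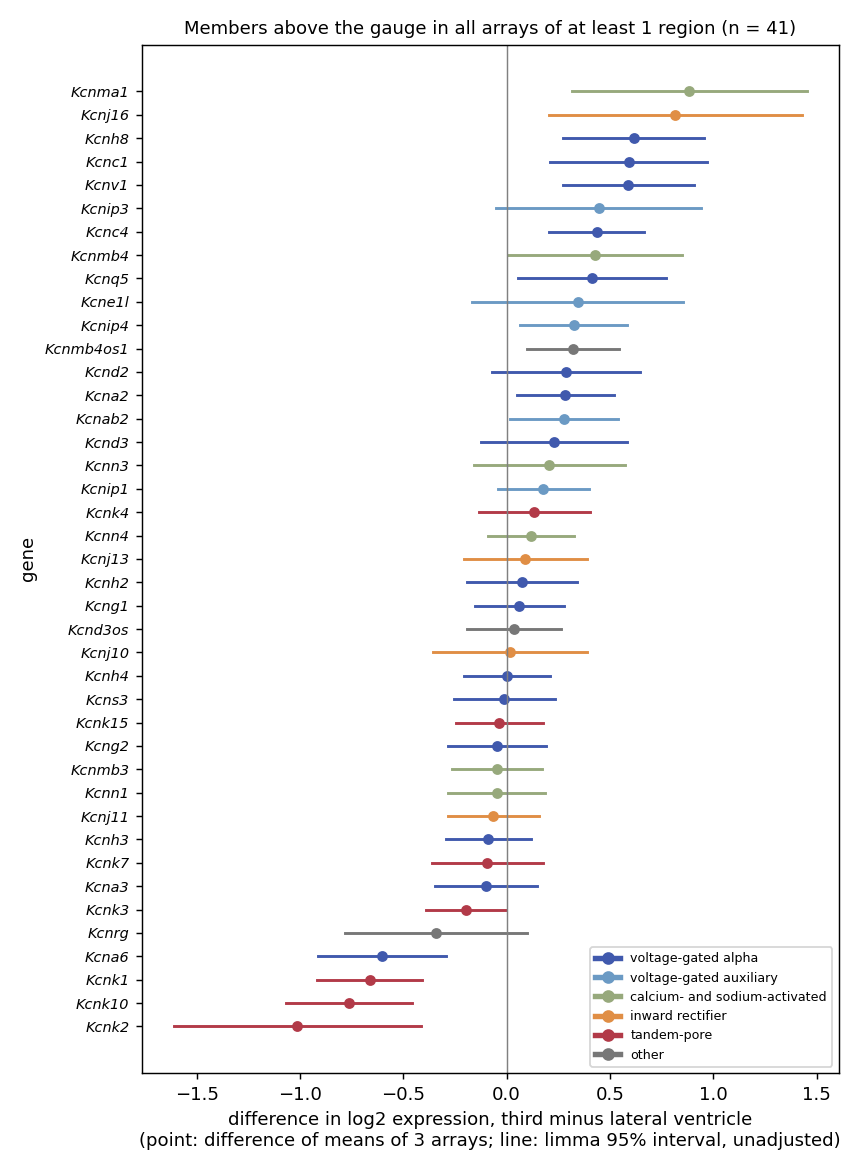
Difference in log2 expression, the third minus the lateral ventricle (horizontal axis), of the 41 members above the gauge in all arrays of at least 1 region, with unadjusted limma 95% intervals from 3 arrays a region. Kcnk2, Kcnk10, Kcnk1 and Kcna6 have the most negative differences, -1.01 to -0.60, and Kcnma1 and Kcnj16 the most positive, 0.88 and 0.82.

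Kcnk1 was the member with the lowest p. Its log2 values were 6.56, 6.49 and 6.81 in the lateral arrays, in the order 1 to 3. The third ventricle arrays had 5.98, 5.89 and 6.00. All lateral arrays lay above all arrays of the third ventricle, lateral array 2 included. The means were 6.62 ± 0.17 (SD, n = 3) and 5.96 ± 0.06 (SD, n = 3), a difference of -0.66 (SE 0.11, 95% interval -0.92 to -0.41, adjusted p = 0.0790).

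Kcnk10 had 6.25, 6.14 and 5.77 in the lateral arrays and 5.30, 5.27 and 5.31 in those of the third ventricle. The lateral arrays were the higher ones without overlap, and the third ventricle values stood less than 0.3 above the gauge. The difference was -0.76 (SE 0.13, 95% interval -1.07 to -0.46, adjusted p = 0.0888).

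Kcnk2, which stretch, membrane lipids and volatile anaesthetics open, had 7.080, 6.079 and 7.004 in the lateral and 5.77, 5.45 and 5.91 in the third ventricle arrays. Lateral array 2 lay nearer the third ventricle arrays than the other lateral arrays. The difference was -1.01 (SE 0.26, adjusted p = 0.239), and from lateral array 2 alone, with no lateral replicate, it was -0.37. The acid-sensitive Kcnk3 differed by -0.20 (95% interval -0.39 to -0.00090, adjusted p = 0.393). Kcnk4, which is related to Kcnk2 and Kcnk10, differed by 0.13 with an interval from -0.14 to 0.40.

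Kcnk1 and Kcnk10 passed in 2 and 3 of the 14 alternative fits. With array weights, which give less weight to arrays that deviate, Kcnk1 differed by -0.71 (adjusted p = 0.0296) and Kcnk10 by -0.71 (adjusted p = 0.0471), and they were the 2 members called, where 0.792% of all genes were. Without lateral array 3 Kcnk10 was the 1 member called (-0.90, adjusted p = 0.0496), where 0.1% of all genes were. Over the fits that left out 1 array, the adjusted p ranged from 0.00601 to 0.406 for Kcnk1 and from 0.0197 to 0.421 for Kcnk10.

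Kcnt2, a sodium-activated channel, showed the widest spread of any member. Lateral arrays 1, 2 and 3 had 6.33, 4.27 and 7.32. The third ventricle arrays had 4.19, 3.94 and 4.12. It lay well above the gauge in lateral arrays 1 and 3 and below it in the other 4 arrays. The difference over all arrays was -1.89 (SE 0.64, adjusted p = 0.332), and the lateral mean was at least 1.83-fold above the gauge in the third ventricle arrays. Without lateral array 2 the difference was -2.74 (adjusted p = 0.000707), and from that array alone it was -0.19. Without lateral array 3 it was -1.22.

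Kcna6, a delayed rectifier subunit, had 5.63, 5.57 and 5.32 in the lateral and 5.02, 4.67 and 5.02 in the third ventricle arrays. It was the 1 member above the gauge in all 3 lateral arrays and no array of the third ventricle. The lateral level was at least 1.33-fold higher than the gauge there (measured difference -0.60, adjusted p = 0.183; -0.57 and 0.0555 without lateral array 2).

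Kcnc1, a fast voltage-gated channel of rapidly firing neurons, was the 1 member with the opposite pattern. It had 4.88, 4.98 and 4.46 in the lateral and 5.37, 5.57 and 5.14 in the third ventricle arrays, at least 1.19-fold above the gauge (measured difference 0.59, adjusted p = 0.276). Kcnc4, of the same family, had 5.37, 5.27 and 5.54 in the lateral and 5.79, 5.86 and 5.82 in the third ventricle arrays. The groups did not overlap, lateral array 2 was the lowest of all, and the difference was 0.44 (SE 0.10, 95% interval 0.20 to 0.67, adjusted p = 0.195). Without lateral array 2 it was 0.37 (adjusted p = 0.0643).

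Kcnh8 had 5.46, 6.04 and 5.81 in the lateral and 6.40, 6.30 and 6.46 in the third ventricle arrays. All arrays of the third ventricle were the higher ones, and lateral array 2 came closest to them. The difference was 0.61 (SE 0.15, adjusted p = 0.214), while a second probe set of the gene, above the gauge in 4 of 6 arrays, differed by 0.25. Kcnv1, a subunit that modifies other channels, had 4.77, 5.24 and 4.98 in the lateral and 5.499, 5.745 and 5.518 in the third ventricle arrays. It passed the gauge in 1 lateral array and in each of the third ventricle, and differed by 0.59 (SE 0.14, adjusted p = 0.206). Kcnq5, of the family that carries the M current, had 4.97, 5.59 and 5.32 against 5.70, 5.79 and 5.63, a difference of 0.41 (adjusted p = 0.353), and 0.25 without lateral array 1.

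Of the A-type pore subunits, Kcnd2 averaged 7.54 ± 0.17 (SD, n = 3) in the lateral group and 7.83 ± 0.28 (SD, n = 3) in the other. The difference was 0.29 with an interval from -0.07 to 0.65, and Kcnd3 differed by 0.23 (-0.13 to 0.58). Without lateral array 2 the differences were 0.37 and 0.33. Kcnd2 differed by 0.13 without array 1 of the third ventricle, and Kcnd3 by 0.0457 without lateral array 1. Their partner Kcnip3 had 6.42, 7.34 and 7.14 in the lateral and 7.35, 7.40 and 7.48 in the third ventricle arrays. Lateral array 1 was far below the others, and the difference of 0.45 (adjusted p = 0.433) was 0.17 without that array and 0.63 (adjusted p = 0.0917) without lateral array 2. Kcnip1 differed by 0.18, Kcnip4 by 0.32 and the cytoplasmic subunit Kcnab2 by 0.28 (adjusted p = 0.378). Kcnab2 lay close to the gauge, with 4.87, 5.18 and 4.85 in the lateral and 5.17, 5.28 and 5.27 in the third ventricle arrays. It passed the gauge in 1 lateral array and in each of the third ventricle. Kcna2 differed by 0.28 (adjusted p = 0.340), but its second probe set, also above the gauge in all arrays, by -0.01.

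Kcnma1 had the largest positive difference. It had 4.65, 5.22 and 5.63 in the lateral and 5.73, 6.26 and 6.16 in the third ventricle arrays. The groups did not overlap, but lateral array 3 came within 0.10 of array 1 of the third ventricle. The difference was 0.88 (SE 0.25, 95% interval 0.32 to 1.45, adjusted p = 0.271), or 0.91 (adjusted p = 0.0920) without lateral array 2. A second probe set, below the gauge in all arrays, differed by 0.06. Its beta subunit Kcnmb4 had 6.69, 7.09 and 6.30 in the lateral and 7.12, 7.10 and 7.15 in the third ventricle arrays, a difference of 0.43 (adjusted p = 0.386), and 0.23 without lateral array 3. Lateral array 2 was level with the third ventricle. The opposite-strand transcript Kcnmb4os1 differed by 0.32 (SE 0.10, adjusted p = 0.291), and whether the array separates this transcript from the gene was not tested. Kcnn2, a small-conductance channel, had 6.35 in lateral array 1 against 4.54 to 4.75 in the other lateral arrays and 5.112 to 5.503 in the third ventricle arrays, with a difference of 0.11.

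Among the inward rectifiers, Kcnj16 had 6.57, 7.62 and 7.50 in the lateral and 7.843, 8.308 and 7.998 in the third ventricle arrays. All arrays of the third ventricle were the higher ones, and lateral array 1 stood about 1 below the other lateral arrays. The difference was 0.82 (SE 0.27, 95% interval 0.21 to 1.43, adjusted p = 0.320), and 0.49 without lateral array 1. Kcnj10, its partner, averaged 7.26 ± 0.22 (SD, n = 3) in the lateral group and 7.28 ± 0.26 (SD, n = 3) in the other. The difference was 0.02 (-0.36 to 0.39), and also 0.02 without lateral array 2. Kcnj13 differed by 0.09 (-0.21 to 0.39), or -0.02 without that array, and Kcnj11 by -0.06. Kcnj8 lay below the gauge in all arrays, and no difference is given for it. Of 7 astrocyte markers, 6 passed the gauge in all arrays. Their mean lay at 6.56 to 7.28 in the lateral and 6.59 to 6.77 in the third ventricle arrays, with lateral array 1 the highest, and Gfap passed in none.

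Kcnrg had 7.19, 6.38 and 6.70 in the lateral and 6.50, 6.26 and 6.49 in the third ventricle arrays, a difference of -0.34 (adjusted p = 0.505), or -0.53 (adjusted p = 0.0850) without lateral array 2 and -0.13 without lateral array 1. It overlaps Trim13 and Dleu2 in the RefSeq annotation, and the probe set of Trim13 had 7.33, 6.31, 6.53, 6.72, 6.39 and 6.43 in the same order. Both were highest in lateral array 1. The part of Trim13 RNA in the Kcnrg values was not tested.

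**Figure D3:**
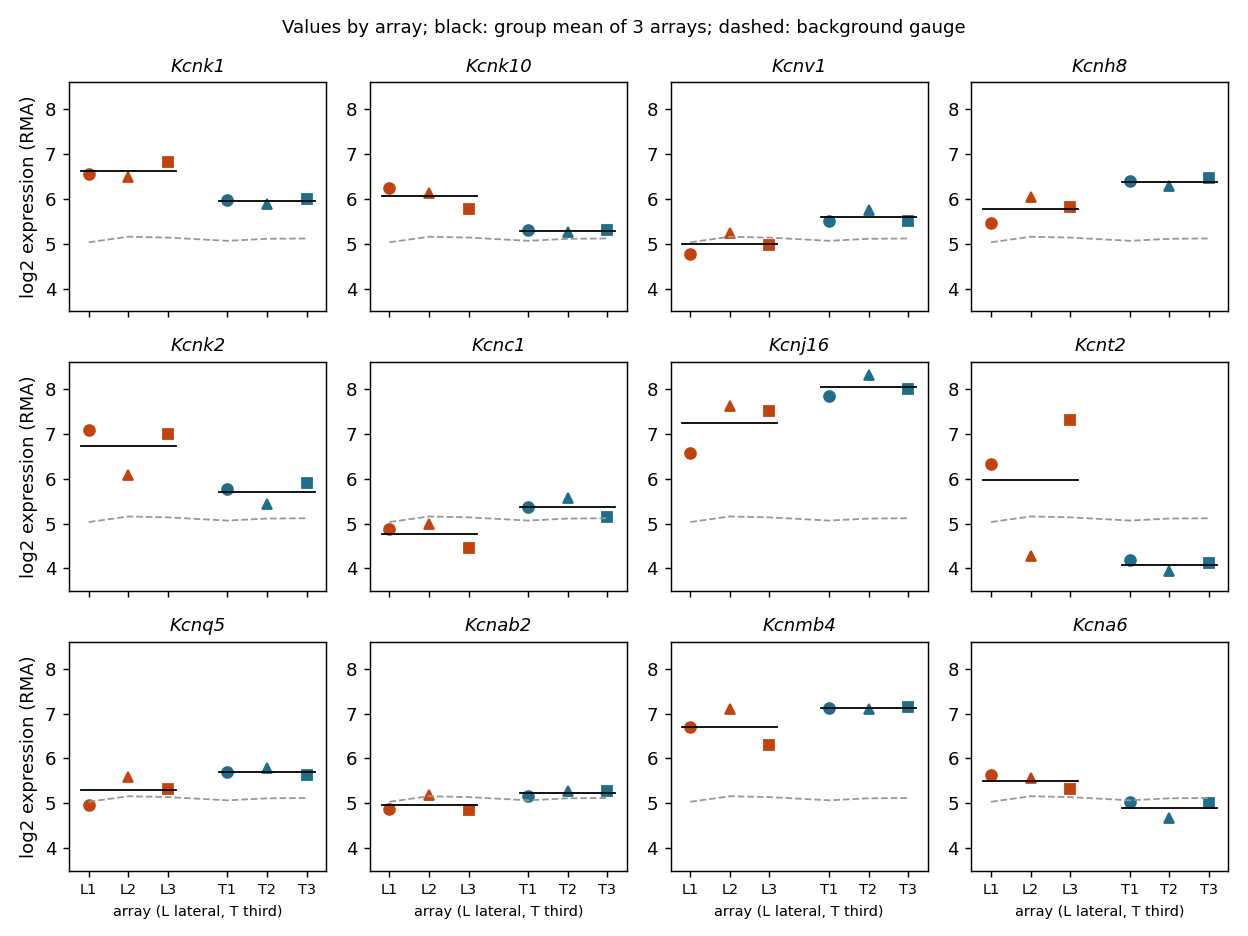
Log2 expression by array (L1 to L3 lateral, T1 to T3 the third ventricle) of the 11 members called without lateral array 2 and of Kcna6; black lines are means of 3 arrays and the dashed line is the background gauge of each array. In Kcnk1, Kcnk10, Kcnk2 and Kcnt2 all lateral arrays lie above the third ventricle, and in Kcnk2 and Kcnt2 L2 lies nearer to it than L1 and L3.

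Among the members above the gauge in all 6 arrays, 17 of 32 differed by less than 0.2 in size. Kcna3 differed by -0.10 (95% interval -0.35 to 0.15), Kcng1 by 0.06 (-0.15 to 0.28), Kcng2 by -0.05 (-0.28 to 0.19), Kcns3 by -0.01 (-0.26 to 0.23), Kcnh2 by 0.08 (-0.19 to 0.34), Kcnh3 by -0.09 and Kcnh4 by 0.00090 (-0.21 to 0.21). Kcnmb3 differed by -0.05 (-0.26 to 0.17), Kcnk15 by -0.03, Kcnk7 by -0.09 and Kcnd3os by 0.04. Larger values with wide intervals were 0.34 for Kcne1l (-0.17 to 0.86) and 0.21 for Kcnn3 (-0.16 to 0.57). Leaving out 1 array moved them between 0.14 and 0.53 and between 0.07 and 0.34. Of these and other named genes, Kcnh3, Kcnk7, Kcnab2 and Kcnd3 overlap Mcrs1, Ehbp1l1, Nphp4 and Kcnd3os in the RefSeq annotation. The list is not complete. Kcnk2, Kcnk10, Kcnma1, Kcnt2, Kcna6 and Kcnq5, among others, also overlap annotated genes, and Kcnip1 overlaps the member Kcnmb1.

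Without lateral array 2, 11 of the 92 members (11.96%) passed, against 8.25% of all genes. In the third ventricle cultures 7 of them (7.61%) were higher, against 4.37% of all genes, and 4 (4.35%) lower, against 3.88%. This fit sets lateral arrays 1 and 3 against the third ventricle. The 4 lower members were Kcnt2 (-2.74), Kcnk2 (-1.33, adjusted p = 0.00121), Kcnk1 (-0.73, adjusted p = 0.00601) and Kcnk10 (-0.72, adjusted p = 0.0197). The 7 higher were Kcnj16 (1.01, adjusted p = 0.0490), Kcnh8 (0.75, adjusted p = 0.00979), Kcnv1 (0.71, adjusted p = 0.00993), Kcnc1 (0.69, adjusted p = 0.0407), Kcnmb4 (0.63, adjusted p = 0.0228), Kcnq5 (0.56, adjusted p = 0.0329) and Kcnab2 (0.38, adjusted p = 0.0490). In Kcnab2, Kcnc1 and Kcnv1 lateral arrays 1 and 3 lay below the gauge. Lateral array 2 lay nearer the other lateral arrays in 3 of the 11, Kcnk1, Kcnk10 and Kcnc1, and nearer the third ventricle in 8. For these 8 the call rests on lateral arrays 1 and 3.

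**Figure D4:**
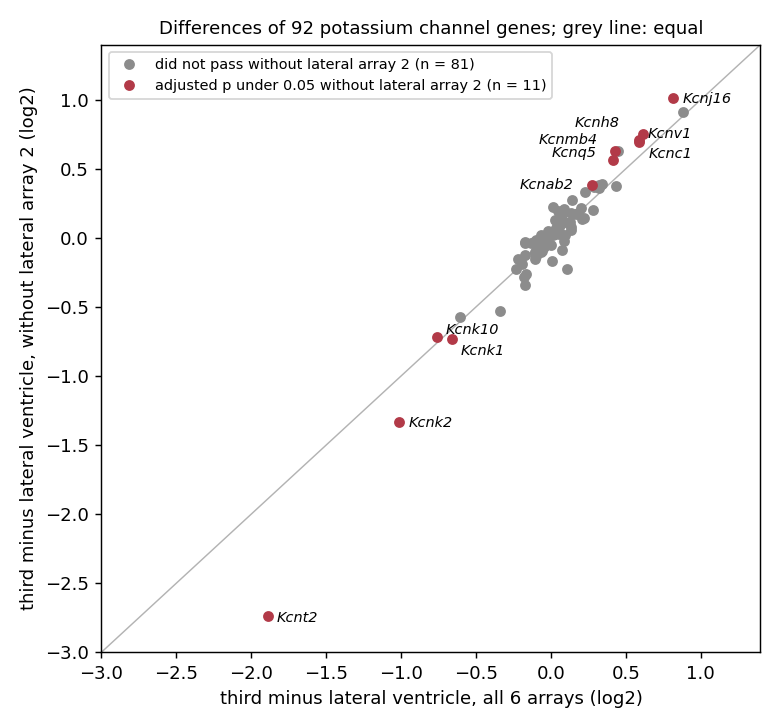
Difference in log2 expression of the 92 members with all 6 arrays (horizontal axis) and without lateral ventricle array 2 (vertical axis); red points passed at an adjusted p below 0.05 without that array, grey points did not, and the grey line marks equal values. Kcnt2 moves from -1.89 to -2.74 and Kcnk2 from -1.01 to -1.33, while Kcnk1 and Kcnk10 lie near the line.

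Spread between arrays was larger in the lateral group. The lateral SD exceeded that of the third ventricle in 63 of 92 members (68.5%) and in 66.8% of all genes. The lateral arrays ranged over more than 1 on the log2 scale in 5 members (5.43%), Kcnt2, Kcnn2, Kcnj16, Kcnh7 and Kcnk2, and in 3.63% of all genes, while no member ranged that far in the third ventricle arrays. In Kcnt2 and Kcnk2 the lateral arrays with lower cell cycle means, 1 and 3, were the high ones. In Kcnn2 and Kcnh7 lateral array 1 alone was the high one, and in Kcnj16 it was the low one. The part of cell cycle state in these values was not tested.

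Some markers of other neural cells were lower in the third ventricle arrays. The mean of 7 oligodendrocyte lineage markers was 6.86 to 6.88 in the lateral and 6.41 to 6.52 in the third ventricle arrays, 6 of 7 passed the gauge in all arrays, and Pdgfra was the 1 called, with a difference of -1.79. Sox10 differed by -0.74 (adjusted p = 0.118), while Olig1 and Olig2 differed by 0.17 and 0.09. The mean of 9 neuronal markers was 6.49 to 6.57 in the lateral and 6.28 to 6.35 in the third ventricle arrays, 6 of 9 above the gauge in all arrays, with Stmn2 and Syt1 above it in none. None of them was called. Dcx differed by -1.63 (adjusted p = 0.136) and Tubb3 by -0.60, while Gap43, Nefm and Nefl differed by 0.60, 0.17 and 0.10. Kcnk1, Kcnk10 and Kcnk2 were likewise lower in the third ventricle arrays. The part of these cell types in the channel values was not tested.

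Of 42 genes that work with potassium channels or carry potassium, 37 were measured and 0 passed in limma. Their median difference was -0.09, and 12 were positive. At an unadjusted p below 0.05 there were 7 (18.9%), against 12.6% of all genes, with 4 higher and 3 lower. The 4 higher were Dpp6, Hcn4, Atp1b3 and the cotransporter Slc12a5 (0.44). The 3 lower were the scaffold genes Adam22 (-0.54) and Dlg2 (-0.86) and the pump subunit Fxyd6 (-0.44). Of these 7, the groups overlapped in Dlg2 alone. Among the 37 measured they did not overlap in 9, where they did not in 17.0% of all genes. Dlg2 and Slc12a5 passed the gauge in 1 array each. The lowest adjusted p, 0.195, belonged to Dpp6, a membrane partner of the Kcnd channels, which had 6.11, 6.37 and 5.97 in the lateral and 6.77, 6.56 and 6.82 in the third ventricle arrays, a difference of 0.57 (SE 0.13). Its groups did not overlap. Dpp10, a related partner of the same channels, differed by -0.67 (adjusted p = 0.426), with overlapping groups and lateral array 1 the highest at 6.41. Amigo1, a partner of Kcnb channels, differed by 0.16. Of the sodium pump subunits Atp1b3 differed by 0.26 (adjusted p = 0.353) and Atp1b2 by -0.22, of the cotransporters Slc12a2 by -0.10 and Slc12a4 by 0.05, and of the scaffolds Dlg1 by -0.17 and Dlg4 by 0.01. Hcn4, a pacemaker channel, passed the gauge in no lateral array and in each of the third ventricle, at 4.64 to 5.03 against 5.11 to 5.49. Hcn3 differed by -0.10. Lrrc26, a gamma subunit of the large-conductance channel, differed by -0.13, and Lrrc52 passed the gauge in no array.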

How the data were processed

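Total RNA was extracted with Trizol and amplified from 500 pg to 50 ng with the NuGEN WT-Ovation Pico system, per the labels' protocols. The deposited log2 values were made by the authors with RMA, and per the submitters' processing notes the program was Affymetrix Expression Console 1.1. Further settings and the genome build are not given in the sources used. RMA compresses differences of dim probe sets, and amplification from little RNA can widen the spread. The number of arrays limits the precision.

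Of 35556 probe sets, 21789 had 1 gene symbol in the platform annotation, 1621 several and 12146 none listed. This left 19938 genes without a filter on dim ones. Several probe sets were present for 999 genes and 3 members. All 92 members matched a symbol of the RefSeq gene table. Differences are the third minus the lateral ventricle. They were fitted in limma 3.58.1 (lmFit and eBayes, prior with 4.04 degrees of freedom and an SD of 0.14) in R 4.3.3. Adjusted p-values are Benjamini-Hochberg over all genes, called under 0.05. Intervals are 95% and moderated. With 3 arrays a region, 0.1 is the smallest two-sided p that an exact permutation can reach. The fit was tested on simulated data of the size of this comparison (19938 genes, 200 with a set fold). It found 31.3% of those set at 1.5-fold, 89.6% at 2-fold and 93.9% at 4-fold, and 7 of its 150 calls were false. The simulated spread was equal in both regions and independent between arrays. In the data it was larger in the lateral group, and lateral array 2 was more like the third ventricle arrays. These shares therefore do not measure what the fit finds in the data.

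A fold is given as a bound where all arrays of a region lay at or below the gauge: the mean of the brighter region against the mean gauge of the dimmer. Members and lists were chosen with earlier results of these data known. Named were members passing in limma, above the gauge in all arrays, among the 6 largest differences in each direction with a region above the gauge, or passing without lateral array 2, the highest of each class, and Kcnj10, Kcnj16, Kcnj8, Kcnk2, Kcnma1 and Kcnd2 in any case (an item of this rule is not reported here); of each partner list, members passing or else the 2 with the highest mean. Members outside this rule (Kcnip4, Kcnn2, Kcnn4, Kcnh7, Kcnj4, Kcnj14, Kcnq3, and those listed as below the gauge) were named after their values were seen. So were the overlapping genes, Dpp10, Adam22, Dlg2, Fxyd6, Slc12a5 and the single marker genes. Opposite-strand transcripts were put in a class of their own with Kcnrg. Alternatives covered the probe set, filters, normalization, prior, array weights, a replicate block, the gauge and each array left out.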

Additional observations from a re-analysis of the deposited data

How the results depend on the processing

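With all 6 arrays 0 potassium channel genes and 46 of all genes passed in limma (19 and 2521 at an unadjusted p below 0.05). With array weights 2 members and 158 genes passed. Leaving out 1 array gave 0 to 11 members and 4 to 1644 genes. Under each other alternative 0 members and 45 to 57 genes passed. The titles number the cultures 1 to 3 in both regions. Deviations of same-numbered cultures correlated at 0.24, 0.11 and 0.07, and each culture correlated best with its own number. Deviations within a region cancel out, so these correlations are tied to one another and cannot decide whether the cultures were paired. With the replicate number as a block 0 members and 57 genes passed. The gauge count of 32 members became 47, 12 and 54 under the other gauges and 32 to 34 when 1 array was left out. Of 40 named members under 14 settings, giving 554 values, 525 kept sign and side of the threshold, 14 passed additionally and 15, in 8 genes with differences of at most 0.09 in size, changed sign. The changed signs were -0.019 with array weights for Kcnh4, and 0.0038 after a further quantile normalization and 0.0099 after cyclic loess for Kcns3. Leaving out 1 array gave ranges of -0.0409 to 0.0758 for Kcnd3os, -0.10 to 0.0161 for Kcng2, -0.0304 to 0.13 for Kcnh2, -0.0495 to 0.0332 for Kcnh4, -0.13 to 0.13 for Kcnj10, -0.0228 to 0.22 for Kcnj13, -0.0699 to 0.0112 for Kcnk15 and -0.10 to 0.0471 for Kcns3. The cause of these changes was not tested. Signal at or below the gauge limits what can be said of 38 members that passed it in no array.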

Other observations

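Further members passed the gauge in some arrays. Kcnj4, an inward rectifier, had 5.37, 5.27 and 5.13 in the lateral and 5.08, 5.02 and 4.98 in the third ventricle arrays. The lateral arrays were the higher ones, with a difference of -0.23 (adjusted p = 0.390). Kcnn4, the intermediate-conductance calcium-activated channel, passed in all 3 arrays of the third ventricle and in 1 lateral array, and differed by 0.12 (adjusted p = 0.642). Kcnq3, a subunit of the M-current channel, passed in 2 lateral arrays and 1 of the third ventricle and differed by -0.18 (adjusted p = 0.646).

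Single arrays stood out in some members. Kcnh7, of the ERG type, was highest in array 1 of both regions, at 5.84 and 5.51, against 4.78 to 5.03 in the other arrays. Kcnj14, an inward rectifier, was highest in lateral array 3 and array 1 of the third ventricle, at 5.52 in each, against 4.79 to 5.13 in the others. Kcnn2 and Kcnrg were highest in lateral array 1.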
